A study of Caenorhabditis elegans with 2 samples.

Results

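Of the 30000 entries in the pooled ce11 list of the ZAG-1 ChIP-seq series, 5903 lie on the X chromosome and are described here. They were chosen by chromosome alone, as all entries whose first column reads chrX, and the other 24097 entries lie on the 5 autosomes. The samples were whole Caenorhabditis elegans at the L1 larval stage of strain OP83, which carries the unc-119(ed3) III mutation and the transgene wgIs83, with an eGFP-tagged ZAG-1 as the protein precipitated. Both biological replicates belong to 1 group of pooled male and female animals, so no condition was compared and no test over samples could be made. The pooled list is named by the authors as peaks and background, so most of its entries are not called as bound. Of the X entries, 84 (1.42%, 95% Wilson interval 1.15 to 1.76) are themselves in the optimal list of 478 entries that the authors thresholded on reproducibility, against 1.59% of all pooled entries, and these are called X peaks below. The optimal list is drawn from the pooled list, and its X entries are exactly those among the 478 pooled entries of highest signal. Being in it does not mean that an entry was high in each replicate. Each entry has a signal value of the authors with no scale given, which was used only for ranks and descriptions. The read depth of the libraries is unknown, no control library was analysed, and all intervals cover counting error only.

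ZAG-1 belongs to the ZEB class of transcription factors, which carry zinc fingers and a homeodomain, and worms without it have defects in neuron differentiation and in the paths of axons. The X chromosome of the worm is present in a pair in hermaphrodites and as a single copy in males. In hermaphrodites a dosage compensation complex, part of which resembles condensin, is recruited to sites on both X chromosomes and lowers their transcription. Many recruitment sites share a motif enriched on X, whose core letters are GCGCAGGG. X also carries the X signal elements, genes that count X chromosomes by repressing xol-1, the switch gene of sex determination, and it is poor in genes expressed in the germline.

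The core GCGCAGGG, searched on either strand up to 100 bp from the summit, was in 9 of the 84 X peaks. Their sequences are shown because the core was in 10.7% (5.74 to 19.1) of X peaks and in 0 of 394 autosomal peaks (Wilson interval up to 0.966%). Of all consecutive windows of the same 201 bp, 0.0851% on X and 0.0553% on the autosomes hold the core. Each line gives the gene with the nearest annotated start, the WBcel235 (ce11) position and strand, and 25 bases on each side of the core, which is in capitals and reads 5′ to 3′.
nspc-17, chrX:14525875-14525932, minus strand: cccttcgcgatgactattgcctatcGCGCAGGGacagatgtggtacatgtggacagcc
W02H3.3, chrX:11094100-11094157, minus strand: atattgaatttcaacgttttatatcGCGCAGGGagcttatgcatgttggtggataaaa
Y41G9A.17, chrX:2997098-2997155, minus strand: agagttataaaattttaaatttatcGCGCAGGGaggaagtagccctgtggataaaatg
F22H10.2, chrX:16682147-16682204, minus strand: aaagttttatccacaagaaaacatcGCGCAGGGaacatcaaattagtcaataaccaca
xol-1, chrX:8036410-8036467, plus strand: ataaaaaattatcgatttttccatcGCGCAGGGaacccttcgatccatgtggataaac
cest-16, chrX:6296551-6296608, plus strand: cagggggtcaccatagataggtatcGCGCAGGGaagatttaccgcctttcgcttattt
col-185, chrX:13514533-13514590, plus strand: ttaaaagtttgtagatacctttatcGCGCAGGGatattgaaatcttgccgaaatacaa
ins-39, chrX:1345031-1345088, plus strand: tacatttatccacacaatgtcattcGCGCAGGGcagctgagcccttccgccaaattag
F20B6.9, chrX:4209241-4209298, minus strand: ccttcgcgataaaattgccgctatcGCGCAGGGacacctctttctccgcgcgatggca
Only the core nearest the summit is printed for each peak. All 9 printed cores follow the letters TC, and they lie 9 to 59 bp from the summit. Further cores within 100 bp lay at W02H3.3 (84 bp, after TC), xol-1 (56 bp, after TC) and cest-16 (45 bp, after TG). For comparison, the X peak of highest signal, at sms-2, holds no core. Its central 121 bases on the plus strand are shown with GAGAGA or its reverse complement in capitals.
sms-2, chrX:949582-949702, plus strand: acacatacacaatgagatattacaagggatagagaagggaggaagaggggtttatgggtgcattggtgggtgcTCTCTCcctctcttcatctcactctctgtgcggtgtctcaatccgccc

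The 9 X peaks with the core were high in both replicates. Their pooled signal was 39.3 to 94.4 with a median of 57.3, against 29.6 to 102.5 with a median of 37.4 for the 75 X peaks without it, and 5 of the 9 were among the 20 X peaks of highest signal. In replicate 1 all 9 were among the 478 entries ranked highest on the genome, at ranks 5 to 233, while 38 of the other 75 X peaks were. In replicate 2 it was 8 of 9, at ranks 12 to 490, and 60 of 75. The core was also in 9 of the 88 X entries among the 478 ranked highest in replicate 1 and in 8 of 87 in replicate 2. On the autosomes it was in 0 of 390 and 0 of 391 entries, with Wilson intervals up to 0.975% and 0.973%. Its share on X fell with pooled rank, to 2.83% (3 of 106) at ranks 479 to 1000 and 0.252% (2 of 794) at ranks 1001 to 5000. On the autosomes 0 of 416 and 2 of 3206 entries at those ranks held it.

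None of the 9 lay within 500 bp of an annotated start. Their summits were 611 to 4852 bp from the nearest start of a protein-coding gene, 7 in intergenic sequence and 2 in introns, while 25 of the 75 X peaks without the core (33.3%) were within 500 bp of a start. None of the 9 held GAGAGA or the word CGTCTC, which 38 and 28 of the other 75 held. None of the 9 overlapped an annotated non-coding RNA gene, and neither did 49 of the other 75. The GC content of their windows averaged 38.1%, against 44.2% for the other X peaks. Where dosage compensation proteins were bound was not measured in these files, and their part in the signal was not tested.

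Counted over the chromosome and not from the peaks, the core occurs 81 times on X and 233 times on the autosomes, which is 4.57 and 2.82 per Mb. Of these occurrences, 30 (37%, 27.3 to 47.9) on X lay inside a pooled entry, against 22 (9.44%, 6.32 to 13.9) on the autosomes. The X peaks covered 14 occurrences (17.3%), which fall in 10 peaks, 1 of them with its core more than 100 bp from the summit, and the autosomal peaks covered 1 (0.429%). A longer match, the core with TC before it, was counted after these sequences had been seen. It occurs 19 times on X, where 14 (73.7%, 51.2 to 88.2) lay in pooled entries and 12 (63.2%, 41 to 80.9) in X peaks. All 12 lay in the peaks printed above, from which the TC was read. The high shares on X are therefore partly fixed by how the match was defined, and are no independent test of it. The longer match occurs 6 times on the autosomes, where 0 lay in a pooled entry, and so few occurrences leave a wide interval. The other 62 occurrences on X lay in pooled entries in 25.8% of cases and in X peaks in 3.23%.

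**Figure D1:**
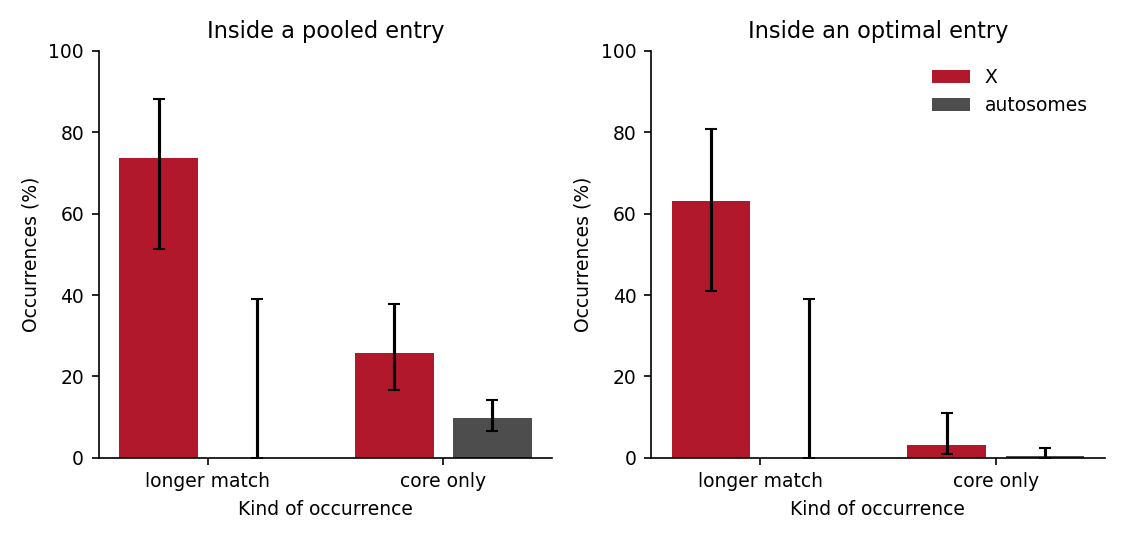
Share of the occurrences of the core (bars, %) that lie inside a pooled entry (left) or an optimal entry (right), on X (red) and on the autosomes (grey), split into the longer match with TC before the core and the core only. Error bars are 95% Wilson intervals. The longer match on X stands at 73.7% and 63.2%, while its 6 autosomal occurrences are at 0. The longer match was defined from sequences of X peaks, so its shares on X are partly fixed by that choice.

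X held 19.7% (19.2 to 20.1) of the pooled entries and 17.7% of the bases of the 6 chromosomes. The density was 333 entries per Mb on X, against 292 per Mb on the autosomes together and 255 (II) to 320 (IV) on single autosomes. Replicate 1 alone had 315 entries per Mb on X against 296 on the autosomes, and replicate 2 had 336 against 291. X was therefore denser than the autosomes together in each list, although in replicate 1 chromosome III had 324 per Mb. X carries fewer genes, 154 protein-coding genes per Mb against 209, so its pooled entries came to 216 per 100 genes against 140.

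Along X the entries were spread evenly in comparison with most autosomes. In 10 equal parts of the chromosome the density was 275 to 367 per Mb, a ratio of 1.33, where the ratio on autosomes was 1.21 (III) to 1.94 (II). The 4 middle parts had 335 per Mb and the 4 outer parts 325, while the same values were 318 and 305 on III, 340 and 325 on IV, and 319 and 231 on V. Neighbouring summits were a median of 1862 bp apart on X and 2094 bp on the autosomes. The leftmost part was the sparsest, with a gap of 95.3 kb near the left end, chrX:25854-121183, and the third Mb was the densest with 394 entries. Of the X peaks 39 lay left of the midpoint and 45 right of it, with 2 to 8 per Mb. Each of the 10 parts held 3 to 13 X peaks, against 5 to 12 on III and 3 to 17 on IV, so the peaks were less evenly spread on X than on III.

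**Figure D2:**
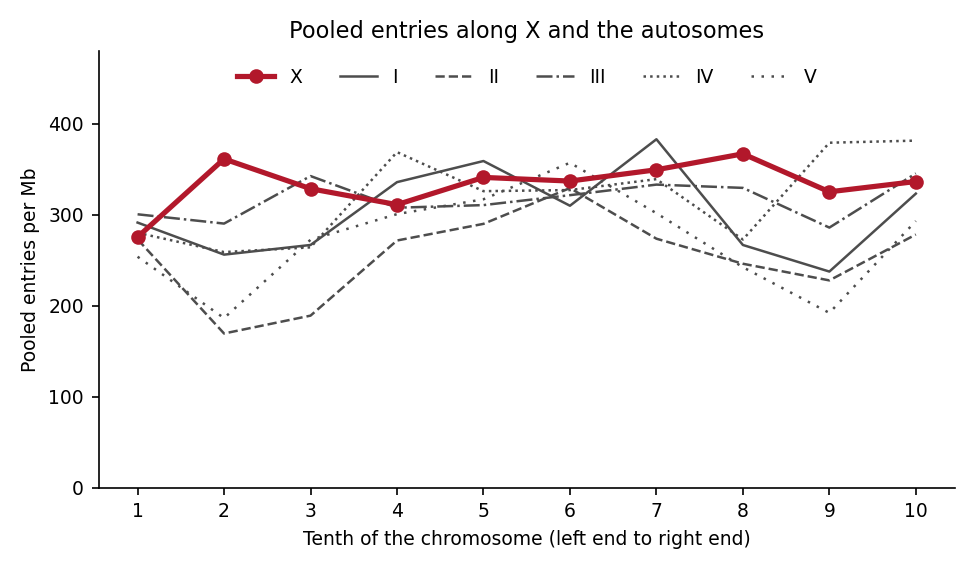
Pooled entries per Mb in each of 10 equal parts of X (red) and of the autosomes (grey lines), from the left end to the right end. X lies between 275 and 367 per Mb, while parts 2 and 9 of II and V are at 170 to 228 per Mb.

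The share of X entries in the optimal list was slightly below that of autosomal entries, with overlapping intervals. By overlap of 1 bp or more, 1.74% of X entries (1.44 to 2.11) touched an optimal peak, against 453 autosomal entries (1.88%, 1.72 to 2.06) and 1.85% of all pooled entries. Counting only entries that are themselves in the list, the 84 on X (1.42%) stand beside 394 on the autosomes (1.64%) and a range of 1.00% on V to 2.28% on I. A −log10 q above 2 was reached by 65 X entries (1.10%) and 310 autosomal entries (1.29%), against 1.25% of all. The differences between X and the autosomes together were smaller than the range over single autosomes. The median signal of all X entries was 10.2 against 10.1 on the autosomes, and that of the peaks was 39.3 against 37.7. The highest X signal was 102.5, while the highest autosomal signal was 180. Just inside the optimal list stood F28C10.3, cab-1 and T13C5.6 with signals of 30, 29.9 and 29.6, and just outside it an X entry with no start within 5000 bp and those at klp-13 and phf-34, with 29.6, 29.5 and 29.4.

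The share of entries on X changed little with rank. It was 17.6% (14.4 to 21.2) of the 478 pooled entries of highest signal, where the X entries are the X peaks. Ranks 479 to 1000 had 20.3% on X, and the lower ranks 19% to 20.4%. The 478 highest entries of replicate 1 were on X in 18.4% of cases and those of replicate 2 in 18.2%. The intervals of the highest ranks contain the 17.7% of bases on X in each of these lists.

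**Figure D3:**
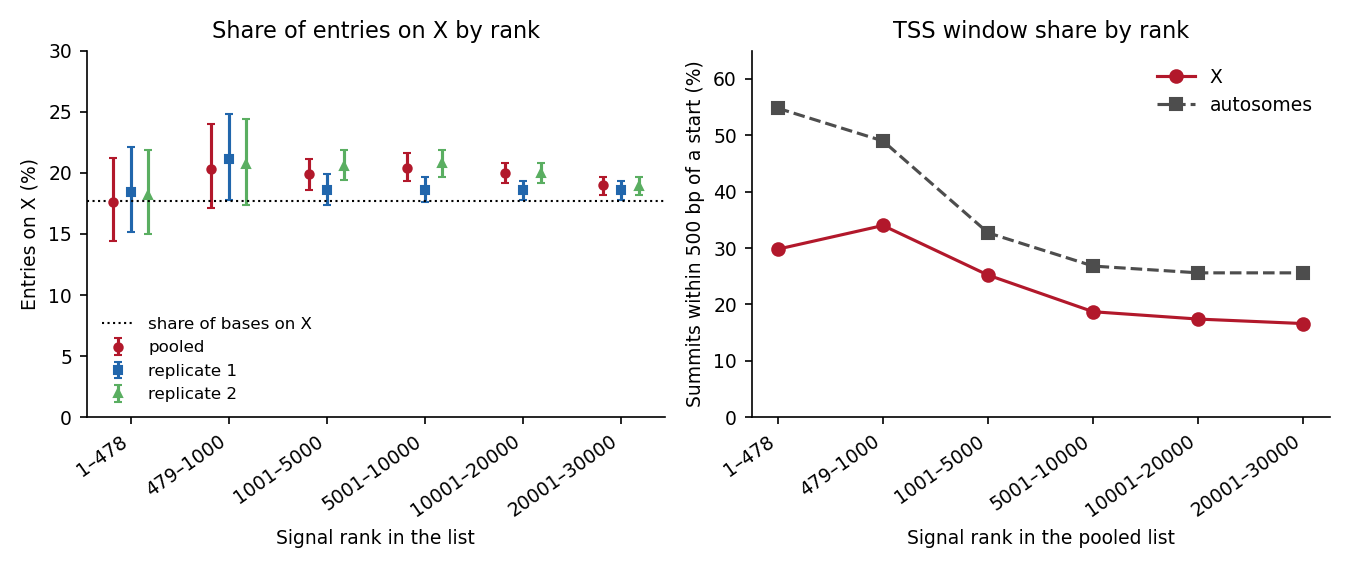
Left, share of entries on X (%) by signal rank in the pooled list and in each replicate's list, with 95% Wilson intervals and the share of bases on X as a dotted line. Right, share of summits within 500 bp of a start (%) by pooled rank, on X (red) and on the autosomes (grey), where X is lower at each rank.

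X entries lay less often at gene starts than autosomal entries. Within 500 bp of an annotated start of a protein-coding transcript, called the TSS window, lay 1115 X entries (18.9%, 17.9 to 19.9) and 6663 autosomal entries (27.7%, 27.1 to 28.2). The window covers 18.8% of the bases of X and 24.0% of those of the autosomes, so X entries met it 1.01 times as often as its share of bases and autosomal entries 1.15 times. Among entries that overlap the optimal list the shares were 26.2% on X (27 entries, 18.7 to 35.5) and 237 of 453 on the autosomes (52.3%, 47.7 to 56.9). Among the peaks themselves 25 of 84 on X (29.8%, 21 to 40.2) and 216 of 394 on the autosomes (54.8%, 49.9 to 59.7) were in the window, and single autosomes ranged from 47.3% (III) to 66.7% (V). The ratio to the share of bases was 1.59 on X, against 2.28 on the autosomes and 2.13 to 2.51 on single autosomes. In replicate 1 the 478 highest entries were in the window in 40.9% of 88 cases on X and 55.9% on the autosomes, and in replicate 2 in 28.7% of 87 and 50.9%. X was lower at every pooled rank, at 29.8% against 54.8% in the highest 478 and 16.6% against 25.6% in the lowest 10000.

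A lower share in the TSS window can go with fewer peaks inside it or with more outside it. X had 9.15 peaks in TSS windows per 1000 protein-coding genes, against 12.5 on the autosomes together and 7.61 (V) to 20.2 (I) on single autosomes. Outside the windows it had 3.33 peaks per Mb, against 2.16 and a range of 0.908 (V) to 3.48 (III). In replicate 1 the 478 highest entries gave 13.2 in windows per 1000 genes on X against 12.6, and 2.93 outside per Mb against 2.08. In replicate 2 the values were 9.15 against 11.5 and 3.50 against 2.33. The count outside was higher on X than on the autosomes together in each list, and the count per gene inside was lower in the optimal list and replicate 2 but not in replicate 1. X kept within the range of single autosomes for both counts in the optimal list.

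The X entries outside TSS windows were mostly intergenic. Intergenic sequence held 2417 X entries (40.9%) and 28.8% of autosomal entries, where it makes up 34.5% of the bases of X and 24.2% of the autosomes. Among X peaks 35 of 84 (41.7%, 31.7 to 52.3) were intergenic against 27.9%, and 15 (17.9%) were in introns against 13.2%. Introns make up 24.8% of the bases of X and 26.8% of those of the autosomes, above the share of peaks in both. Coding exons held 394 X entries (6.67%) against 9.55%, and make up 15.5% and 18.4% of the bases. They held 0 of the 84 X peaks (Wilson interval up to 4.37%) and also 0 of the 394 autosomal peaks (up to 0.966%). The median distance to the nearest start was 1521 bp for X entries against 1154 bp, and 1065 bp for X peaks against 377 bp, with 313 to 533 bp on single autosomes. No start lay within 5000 bp of 563 X entries and of 8 of the 84 X peaks, against 16 of 394 autosomal peaks.

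**Figure D4:**
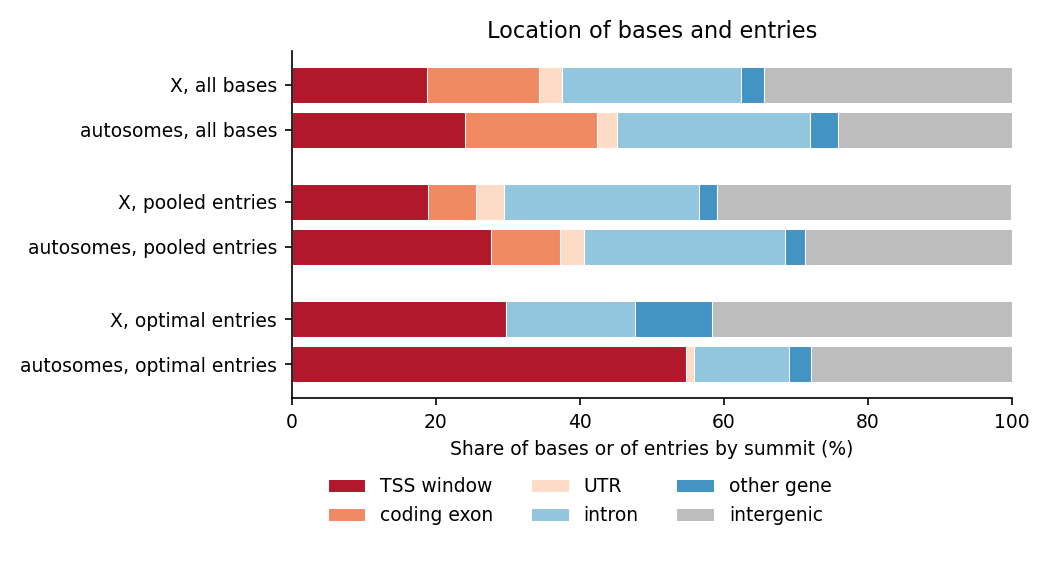
Share (%) of all bases, pooled entries and optimal entries in each location class, with X above the autosomes in each pair. For optimal entries the TSS window takes 29.8% on X and 54.8% on the autosomes.

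Of the 2731 protein-coding genes on X, 2067 (75.7%, 74.0 to 77.3) were assigned a pooled entry by nearest start within 5000 bp, against 10515 (61%, 60.3 to 61.7) on the autosomes, 55.1% (II) to 67.3% (III) on single autosomes, and 63% of all. An entry that overlaps the optimal list was assigned to 73 X genes (2.67%, 2.13 to 3.35) against 366 (2.12%, 1.92 to 2.35), 1.12% to 3.47% on single autosomes, and 2.20% of all. X genes are longer, with a median of 2548 bp against 1964 bp. Among genes under 2 kb, 64.6% on X and 50.3% on the autosomes had an entry, while among genes of 10 kb or more 93.4% and 92% had one. At least 5 entries were assigned to 256 X genes, 12.4% of those with any, against 7.57%. The most were assigned to unc-2, a voltage-gated calcium channel subunit of presynaptic terminals, with 21 entries over 52.6 kb. Next came mbl-1, a muscleblind RNA-binding protein, with 17 entries, gap-2, a Ras GTPase-activating protein, with 16, and scd-1 with 14. Below them cab-1, rgs-2, F54G2.1 and T06F4.1 had 13 each. Of the 21 entries at unc-2, 10 were met in both replicates, yet the highest of them had a signal of 18.4 and none overlapped the optimal list.

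The strongest X peak, chrX:949470-949813, was intergenic and 759 bp from a start of sms-2, which is named as a sphingomyelin synthase gene. Its signal was 102.5 in the pooled list, 36 in replicate 1 and 66.6 in replicate 2, where it ranked 13 and 9. The next was nspc-17, at chrX:14525791-14526134, with a pooled signal of 94.4 and values of 38.2 and 59.2 in replicates 1 and 2. W02H3.3, at chrX:11093974-11094317, had 88.7 pooled, 44.2 in replicate 1 and 42.4 in replicate 2, from a summit 4040 bp away from its start. ZK899.6, at chrX:9465681-9466024, had 81.8, with 33.4 and 51.8 in replicates 1 and 2. The fifth, chrX:2996984-2997327, lay in an intron 2596 bp from a start of Y41G9A.17, with 76.3 pooled and 30.4 and 47.1 in the replicates. None of these 5 was in a TSS window, and 3 of them hold the core shown above.

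Below them, the X peak at sma-9, a zinc finger factor that acts in BMP-type signaling, had a pooled signal of 74.1 and lay 3009 bp from the start. rpl-11.2, a ribosomal protein gene, had 73.4 in its TSS window, and epg-7, an autophagy gene, had 63.4 in its own. The peak at nfki-1, which encodes a protein like inhibitors of NF-kappa-B, had 60, that at F22H10.2 had 59.9 and that at egrh-1, a zinc finger factor of the EGR family, had 59.5. The peak nearest to xol-1 had 57.3 and lay 4852 bp from its start. spc-1, which encodes alpha spectrin, had 57.6, yet ranked 2267 in replicate 1 and 25 in replicate 2. The peak at unc-9, a gap junction innexin of neurons and muscle, had 54 in an intron, with 26.9 in replicate 1 and 28.3 in replicate 2. The others of the first 20 were F19H6.5, F09C8.2, serp-1.1 and ZC506.1, with 53.2 to 55.1, and 2 peaks with no start within 5000 bp, with 74.4 and 65.1. Of these 20 peaks only rpl-11.2, epg-7, serp-1.1 and ZC506.1 were in TSS windows.

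All 4 X-linked genes of the X signal and sex determination list had a pooled entry, and 1 had an X peak, beside 75.7% with an entry and 2.67% with an optimal one among all X genes. That gene was xol-1, with 6 entries, the highest at ranks 42 and 137 in replicates 1 and 2. fox-1, an RNA-binding splicing factor that acts as an X signal element, had 10 entries with a highest signal of 21.9, in its TSS window. ceh-39, a ONECUT homeobox gene, had 2 entries with a highest signal of 12.1, and sex-1, a nuclear hormone receptor gene, had 1 with 7.71, against a median of 10.2 for all X entries. Replicate 1 had no entry over the highest one of fox-1, ceh-39 or sex-1, which replicate 2 ranked 503, 9068 and 16778. Of the 7 autosomal members of that list 7 had an entry and 0 a peak, beside 61% and 2.12% of all autosomal genes. The X-linked genes of dosage compensation were sdc-2, which starts recruitment of the complex to X, with 3 entries and a highest signal of 15.7, and sdc-1, with 1 entry and 8.65. Neither had an X peak, nor did any of the 8 autosomal members. The entry of sdc-1 was not met by replicate 1.

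Neuronal genes on X were counted by 4 lists, whose members were chosen with earlier results of these data known. Of the 14 X-linked synaptic and pan-neuronal genes 13 had an entry and 2 an optimal one, against 29 and 13 of 31 on the autosomes. Beside these stand 75.7% and 2.67% of all X genes, and 61% and 2.12% of all autosomal genes. The choice of members may partly fix these counts, so no difference between X and the autosomes is drawn from them. The members with X peaks were unc-9 and unc-10, which encodes the active zone protein RIM, with 47.1 at 4640 bp from the start, and the next highest were syd-2, an active zone organizer, with 25.9 and sng-1, synaptogyrin, with 21.8. Of 27 X-linked ion channel and transmitter receptor genes 26 had an entry, and unc-9 alone had a peak. The next highest were unc-58, a potassium channel family gene, with 23.7, mec-2, a stomatin-like gene of touch neurons, with 23.1, and dop-4, a dopamine receptor gene, with 21.6. Of 17 X-linked neuron identity and homeodomain genes 13 had an entry and 0 a peak, the highest signals being 23.6 at ceh-18, 22.8 at lim-4, 21.8 at ceh-14 and 19.3 at lin-32. None of the 26 autosomal members of that list had a peak either.

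Of 15 X-linked axon guidance and migration genes 13 had an entry and 1 a peak, lin-18, a Wnt receptor gene of the Ryk family, with 34.2. Next to it stood unc-115, an actin-binding protein gene, with 28.6 at rank 524, egl-17, a fibroblast growth factor gene, with 18.2, and dgn-1, a dystroglycan gene, with 15.6. Of 34 X-linked neuropeptide genes 27 had an entry and 1 a peak, the insulin-like gene ins-39 with 39.4, followed by nlp-49 with 23.8, nlp-67 with 16.4 and nlp-14 with 15.1. Replicate 1 had no entry over the highest ones at dgn-1, nlp-49, nlp-67 and nlp-14. The 79.4% of neuropeptide genes with an entry stand beside 75.7% of all X genes, and 2.67% of all X genes had an optimal one.

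Outside neurons the counts stand beside 75.7% of all X genes with an entry and 2.67% with an optimal one, and 61% and 2.12% of autosomal genes. There, 9 of 10 X-linked muscle genes had an entry and 0 a peak, with signals of 22.9 at unc-98, 21.5 at stn-2, 16.9 at tnt-2 and 14.7 at mup-2. Of 10 intestine genes 5 had an entry and 0 a peak, with 12.6 at elt-4, 11.7 at vit-4, 10.7 at med-1 and 9.82 at elt-2. The vitellogenin genes vit-1, vit-2, vit-3 and vit-5 had none. Of 27 X-linked collagen genes 14 had an entry and 1 a peak, col-185 with 41.4, the next being col-176 with 16.2, col-166 with 16.1 and col-174 with 15.9. Of 3 X-linked members of the germline list 2 had an entry. They were puf-9, a Pumilio-type RNA-binding protein gene, with a peak of 44.5 in its TSS window, and him-4, a hemicentin gene, with 16.3. Being on that list does not show that a gene acts in the germline. Both X-linked ribosomal protein genes had an entry, rpl-11.2 with a peak and rpl-25.1 with 10.4, and 18 of 76 autosomal ribosomal protein genes had an optimal entry. Replicate 1 had no entry over the highest ones at tnt-2, elt-4, vit-4, med-1 and col-174, nor replicate 2 over those at col-166 and rpl-25.1. The peaks counted for xol-1, ins-39 and col-185 are the ones that hold the core, at 4852, 611 and 3496 bp from the starts.

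Genes annotated as ncRNA or tRNA lay under a larger share of X peaks than of autosomal peaks. Of the 84 X peaks 24 (28.6%) overlapped a gene annotated as ncRNA, against 61 of 394 (15.5%). Over all pooled entries the shares were 6.47% and 3.62%, so X was also higher there, and X carries 2520 such genes against 5244 on the autosomes. Of these genes 17.8% on X and 19% on the autosomes were met by a pooled entry. Peaks met 32 of the 2520 on X and 81 of the 5244 on the autosomes, so per gene X was not higher. No X peak overlapped an snRNA, miRNA, piRNA or antisense RNA gene, against 9, 2, 1 and 2 autosomal peaks. X carries few of these genes, 3, 74, 162 and 7, against 126, 187, 15201 and 93 on the autosomes. The autosomal counts are 2.28%, 0.508%, 0.254% and 0.508% of autosomal peaks, so these zeros do not set X apart. A tRNA gene lay under 7 X peaks (8.33%), against 1 autosomal peak (0.254%). Of the 276 tRNA genes on X, 9 (3.26%, 1.72 to 6.08) were under an X peak, against 1 of 336 (0.298%, 0.0526 to 1.67) on the autosomes. In replicate 1 the 478 highest entries covered 6 X tRNA genes against 2, and in replicate 2 they covered 5 against 0. The 7 X peaks with tRNA genes had signals of 30.2 to 47.8, with the highest at C28G1.2, so none was among the first 20. Over all pooled entries 88 X tRNA genes (31.9%, 26.7 to 37.6) were met against 75 (22.3%, 18.2 to 27.1).

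The replicates met X and autosomal entries in similar shares. Replicate 1 overlapped 3108 X entries (52.7%, 51.4 to 53.9) against 54.5% of autosomal entries, replicate 2 overlapped 4129 (69.9%, 68.8 to 71.1) against 67.6%, both overlapped 1886 (31.9%, 30.8 to 33.2) against 32.0%, and neither overlapped 552 (9.35%) against 9.87%. The pooled and optimal lists were derived from the alignments of both replicates, so overlap with the replicates' own lists is in part built in. All 84 X peaks were met by both replicates, as were 383 of 394 autosomal peaks, but most were not high in both. Of the X peaks 47 (56.0%) met the 478 highest entries of replicate 1, 68 (81.0%) those of replicate 2 and 40 (47.6%) both, against 59.1%, 75.4% and 41.9% of autosomal peaks. Of the 88 X entries among the 478 highest of replicate 1, 41 (46.6%) overlapped those of replicate 2, against 43.6% on the autosomes. For the 1000 highest the shares were 30.3% (24.3 to 37) and 37.8% (34.5 to 41.2). Across X entries met by both replicates Spearman's rho of the replicates' ranks was 0.216 (n = 1886 entries), against 0.268 (n = 7705) on the autosomes together and 0.217 (V) to 0.328 (I) on single autosomes, as a description of entries that share their 2 libraries. Among the entries that overlap the optimal list the order was the other way, 0.211 for the 1.74% of X entries that do and 0.0904 for the 442 autosomal entries met by both. Single autosomes ranged there from -0.0151 (I) to 0.209 (III), so X was close to III.

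**Figure D5:**
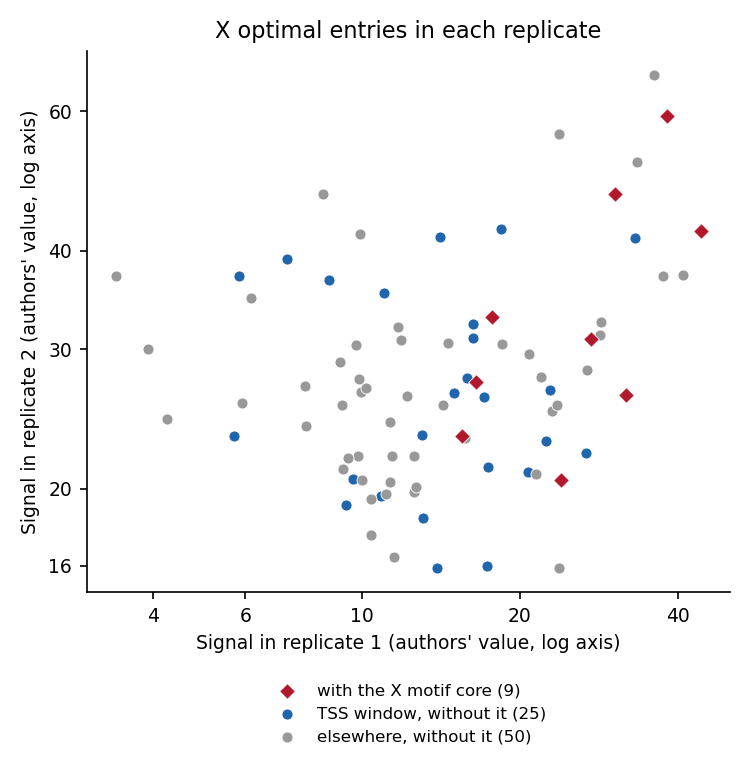
Signal of the 84 X peaks in replicate 1 (horizontal) and replicate 2 (vertical), both on log axes, with the 9 that hold the core as red diamonds, those in TSS windows in blue and the others in grey. The diamonds lie at 15.5 to 44.2 in replicate 1, while several other peaks are below 10 there.

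Other sequences were searched in the same windows, again on either strand. GAGAGA and CGTCTC are words common at the peaks of this series. The words CAGGTA and also CAGGTG are E-box letters that ZEB-class factors are known to bind. No searched word contains another. GAGAGA was in 38 of 84 X peaks (45.2%, 35 to 55.9) against 50.3% of autosomal peaks, in 11.9% of all X entries against 13.2%, and in 9.50% of consecutive windows of X against 10.1%. CGTCTC was in 33.3% of X peaks against 37.1%, in 4.96% of X entries against 6.55%, and in 4.78% of windows against 5.56%. CAGGTA was in 1 X peak (1.19%) against 1.78%, where 5.31% of windows on X and 5.32% on the autosomes hold it. CAGGTG was in 5 X peaks (5.95%, 2.57 to 13.2) against 4 autosomal peaks (1.02%, 0.395 to 2.58), where windows hold it in 4.82% and 4.90% of cases. The mean GC content of the 201 bp windows was 43.5% ± 6.86 at X peaks against 43.2% ± 6.56 at autosomal peaks (SD over peaks, n = 84 and 394), and 33.2% against 33% over pooled entries. A match says only that these letters are present.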

How the data were processed

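Whole L1 larvae in 2 biological replicates were used for ChIP-seq. The authors deposited 8 peak lists on 2 builds, called against a control alignment, per the release notes. For the aligner, caller and thresholds, the sources used here give nothing. Each deposited list gives a signal value on the authors' own scale, a −log10 q value of their caller, and a summit offset, used as deposited. The ce11 lists were set beside WBcel235 and Ensembl release 115 gene models, and no coordinates were converted. Chromosome ends fit the assembly lengths. Entries overlapped when they shared 1 bp or more. Summits were classed in the order TSS window (500 bp), coding exon, UTR, intron, other gene, intergenic, and assigned to the nearest protein-coding start within 5000 bp, which does not show which gene is regulated. Overlap, class and interval functions were tested on simulated data. Tools were Python 3.11.15, numpy 2.4.6, pandas 2.3.3, scipy 1.17.1, matplotlib 3.10.9.

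The question was how X entries compare with autosomal ones. Regions of 1 list are not samples, so shares with 95% Wilson intervals and the range over 5 autosomes are given with no test. Per-replicate lists were used with their 478 highest entries in place of the optimal list. The rule names the genes of the 20 X peaks of highest signal, the 5 X genes with most entries (with genes tied at the last place), up to 4 X-linked members per list by signal and every X signal element. Members, motifs and the 12 gene lists were chosen with earlier results of these data known. sex-2, tni-2 and opt-2 matched no symbol.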

Additional observations from a re-analysis of the deposited data

How the results depend on the processing

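The share of X entries met by replicate 1, replicate 2 and both was 43.9%, 64.2% and 21.8% when 50% of the entry had to overlap. The share of X entries in the optimal list was 0.864% when only the 239 optimal entries of highest signal were used, 1.10% for a −log10 q above 2, and 1.42% for entries that are themselves in the list, an alternative chosen after seeing the data. TSS windows of 250 bp held 9.30% of X entries and 12.6% of those that overlap the optimal list, and windows of 1000 bp held 35.9% and 43.7%. Assignment within 1000 bp gave 52.7% of X genes a pooled entry and 1.46% an optimal one, and within 2000 bp it gave 67.6% and 1.90%. GAGAGA was in 23.3% of windows of 50 bp on each side and in 59.2% of those of 250 bp. With 1 replicate left out, the share of entries on X was 18.6% to 19.9%, and the share of the highest X entries in TSS windows was 28.7% to 40.9%. The TSS-window share of optimal entries was lower on X than on the autosomes in 7 of 7 settings that can change it, the reported one included (ratio 0.360 to 0.732), and the share of genes with a pooled entry was higher in 5 of 5 (1.17 to 1.25). The share of genes with an optimal entry was higher on X in 6 and lower in 1, assignment within 1000 bp (0.935 to 1.44). GAGAGA was lower in 5 and higher in 2, the 239 optimal entries of highest signal and the list of replicate 1 alone (0.664 to 1.06). The cause of these changes was not tested beyond the wider or narrower rule. Density per Mb on ce10 was not run. With 84 X peaks, counting error limits each share as its interval gives, and the reads behind them are unknown. No paired analysis was possible because both replicates are in 1 group.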

Other observations

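The features in this paragraph were chosen after their values were seen. Of 177 windows of 100 kb along X, 116 held no X peak, 43 held 1 and 18 held more, with at most 3. The window from 13700001 to 13800000 held the most pooled entries, 55, and 3 X peaks. Neighbouring X peaks less than 1 kb apart occurred in 2 places, at C04C11.25 and at ftt-2, which encodes a 14-3-3 protein. The ftt-2 peaks had pooled signals of 32.4 and 31.4. Both met the same single entry of replicate 2, at rank 69, and were low in replicate 1 at ranks 29553 and 8817. lin-14, a heterochronic gene that times larval stages, had X peaks with signals of 36.7 and 32.3, in an intron and in another annotated gene. The peak with most GAGAGA letters was at tbc-12, where the hexamer matched 14 times.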
